A study of Mus musculus with 8 samples.

Results

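A set of 10 genes of the early neural tube, the 4 SoxB genes Sox1, Sox2, Sox3 and Sox21 and the progenitor genes Nes, Hes3, Hes5, Fabp7, Msi1 and Ncam1, was followed in Gcnf-/- and WT mouse embryos. They were chosen by name, and all 10 matched 1 identifier each among the 55421 in the deposited table. Each one passed the filter on low values, a TPM (a length-corrected abundance scaled to the same total in each library) of at least 1 in at least 2 libraries, which 16699 genes passed. The lowest value of any of the 10 was 3.51 TPM, that of Ncam1 in anterior WT library 156, and between 69 and 13533 reads lay behind each value. The study sequenced poly-A RNA of embryos at E9.25 with 9 to 11 somites, cut into an anterior piece, reaching back to pharyngeal arch 1, and a posterior piece, starting at pharyngeal arch 2. The 4 groups were Gcnf-/- posterior, WT posterior, Gcnf-/- anterior and WT anterior, with 2 libraries each. Gcnf-/- embryos were homozygous for the mutant allele, and the labels name no treatment, strain or further allele in any group. Neither the part of Gcnf that the allele removes nor the number of embryos in a library is stated in the labels. Mutant libraries carry the numbers 159 and 163 and WT libraries the numbers 153 and 156. The labels do not say that libraries of 1 group came from separate embryos. For the mutant numbers the sex-linked genes given below show it, and for the WT numbers the spread behind a p-value may be technical.

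SoxB1 proteins (Sox1, Sox2 and Sox3) are transcription factors that hold neural plate and neural tube cells in a dividing, uncommitted state, and the SoxB2 protein Sox21 is a repressor that acts against them and promotes neuronal differentiation. Hes3 and Hes5 are basic helix-loop-helix repressors of proneural genes; Hes5 is a direct target of Notch signalling, whereas Hes3 marks the early neuroepithelium and the border of midbrain and hindbrain. Nes encodes the intermediate filament nestin, Fabp7 the brain lipid binding protein of radial glia, Msi1 an RNA-binding protein that represses translation of the Notch antagonist Numb, and Ncam1 the neural cell adhesion molecule, which somites and heart also make. Gcnf, official symbol Nr6a1, encodes germ cell nuclear factor, an orphan nuclear receptor that silences Pou5f1 as pluripotency is lost.

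Libraries held 27064113 to 52957992 reads in genes, and the 2 libraries of a group correlated across genes at r = 0.984 to 0.992. Nr6a1 itself stood at 158.0 and 116 TPM in posterior Gcnf-/- libraries 159 and 163, against 157 and 165 TPM in posterior WT libraries 153 and 156. In anterior pieces it stood at 239.8 and 202 TPM in Gcnf-/- libraries, against 194 and 205 TPM in WT libraries. A gene-level value cannot check the labels where the deleted part is not known. Both libraries numbered 159 held Xist, at 25.3 and 30.9 TPM, and the other 6 held the Y-linked Ddx3y at 26.2 to 39.4 TPM, so embryo sex differs between the mutant numbers; Sox3 is X-linked. Tissue pieces are mixtures, in which fewer cells of a type and less RNA per cell cannot be told apart.

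The promoters of Fabp7, Hes5 and Sox1, chosen after their values were seen, are shown first, because in both regions the Gcnf-/- libraries of these 3 genes lay above the WT libraries and their windows held motif matches. Nes lay above too, and its window, which held no match, is not shown. RefSeq windows of 300 bases (GRCm38.p6, 250 before to 50 after the annotated start, shown on the strand of the gene) matched 6 of the 10 genes, Sox1, Sox2, Sox21, Nes, Hes5 and Fabp7. Both strands were searched for 8 motifs, and capitals mark every match. The nuclear receptor motifs were the core AGGTCA, its extended form TCAAGGTCA and its direct repeat without a spacer, both longer forms searched as Nr6a1 sites. The others were the Rbpj core TGGGAA and its longer form TGTGGGAA, the Sox cores ACAAAG and ACAATG, and the POU octamer ATGCAAAT. Shorter motifs lie within the longer forms.
Fabp7, chr10:57784673-57784972, + strand: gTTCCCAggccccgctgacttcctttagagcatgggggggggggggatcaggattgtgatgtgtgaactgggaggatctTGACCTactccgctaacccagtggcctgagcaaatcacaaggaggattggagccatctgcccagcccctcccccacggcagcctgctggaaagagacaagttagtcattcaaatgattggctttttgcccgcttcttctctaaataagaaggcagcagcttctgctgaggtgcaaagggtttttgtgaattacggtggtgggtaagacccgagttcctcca
Hes5, chr4:154960673-154960972, + strand: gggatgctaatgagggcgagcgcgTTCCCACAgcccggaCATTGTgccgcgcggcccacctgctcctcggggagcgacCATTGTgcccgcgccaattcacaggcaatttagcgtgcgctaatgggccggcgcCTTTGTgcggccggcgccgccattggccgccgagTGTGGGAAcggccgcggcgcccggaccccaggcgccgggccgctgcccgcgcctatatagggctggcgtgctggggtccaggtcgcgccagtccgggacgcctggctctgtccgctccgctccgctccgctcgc
Sox1, chr8:12395269-12395568, + strand: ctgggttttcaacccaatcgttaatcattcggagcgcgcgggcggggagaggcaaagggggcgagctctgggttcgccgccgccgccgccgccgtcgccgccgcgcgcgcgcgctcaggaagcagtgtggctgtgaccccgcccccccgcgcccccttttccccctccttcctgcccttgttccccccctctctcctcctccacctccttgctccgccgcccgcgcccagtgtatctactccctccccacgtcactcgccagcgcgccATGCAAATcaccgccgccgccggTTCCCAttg

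The window of Fabp7 held AGGTCA on the opposite strand, from -171 to -166 relative to the start, and TGGGAA on the opposite strand from -249 to -244. Hes5 held TGTGGGAA on opposite strands, from -226 to -219 and from -84 to -77, with ACAATG on the opposite strand from -211 to -206 and from -172 to -167 and ACAAAG on the opposite strand from -118 to -113. Sox1 held ATGCAAAT from 18 to 25 and TGGGAA on the opposite strand from 41 to 46, both after the start used for the window. The GENCODE annotation, used for the gene coordinates below, starts Sox1 at 12395295, so by it most of this window lies inside the gene. It starts Sox2 at 34650405, after the end of the Sox2 window. Among 32851 windows of the same length, AGGTCA was found in 16.3%, TGGGAA in 25.6%, TGTGGGAA in 1.86%, ACAAAG in 18.7%, ACAATG in 12.6% and ATGCAAAT in 1.74%. TCAAGGTCA was found in 0.423% and the direct repeat in 0.00609% of all windows, and neither lay in a window of the 6 genes. Sox2 held AGGTCA and ACAAAG, and Sox21 and Nes held none. These matches describe letters in a short window and are not evidence of binding.

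Posteriorly, 7 of the 10 genes passed the test between genotypes, 6 higher and 1 lower in Gcnf-/- libraries, where 11.5% of all genes tested passed, 8.56% higher and 2.93% lower. The 6 higher genes were Sox1, Sox2, Sox21, Hes5, Fabp7 and Msi1, and the lower gene was Hes3. A gene passed where limma's adjusted p over all genes was under 0.05. In the anterior pieces 5 of the 10 passed, 4 higher (Sox1, Nes, Fabp7 and Ncam1) and 1 lower (Hes3), against 23.6% of all genes, 13.3% higher and 10.2% lower. The median difference of the 10 genes was 0.60 in the posterior and 0.56 in the anterior pieces on the log2(TPM + 1) scale, beside 0.048 and 0.020 for all genes. Both posterior Gcnf-/- libraries lay above both posterior WT libraries for 8 genes and below them for 1. Both anterior Gcnf-/- libraries lay above both anterior WT libraries for 6 genes and below them for 2. The share of all genes with libraries apart in this way was not counted, so these counts have no background. The posterior count was 2 without WT posterior library 153 and 4 without WT posterior library 156, WT anterior library 153 or WT anterior library 156. Of all genes in the posterior pieces, 1430 were higher and 489 lower, against 1366 and 1149 under median-of-ratios scaling and 1226 and 1050 under quantile normalization.

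**Figure D1:**
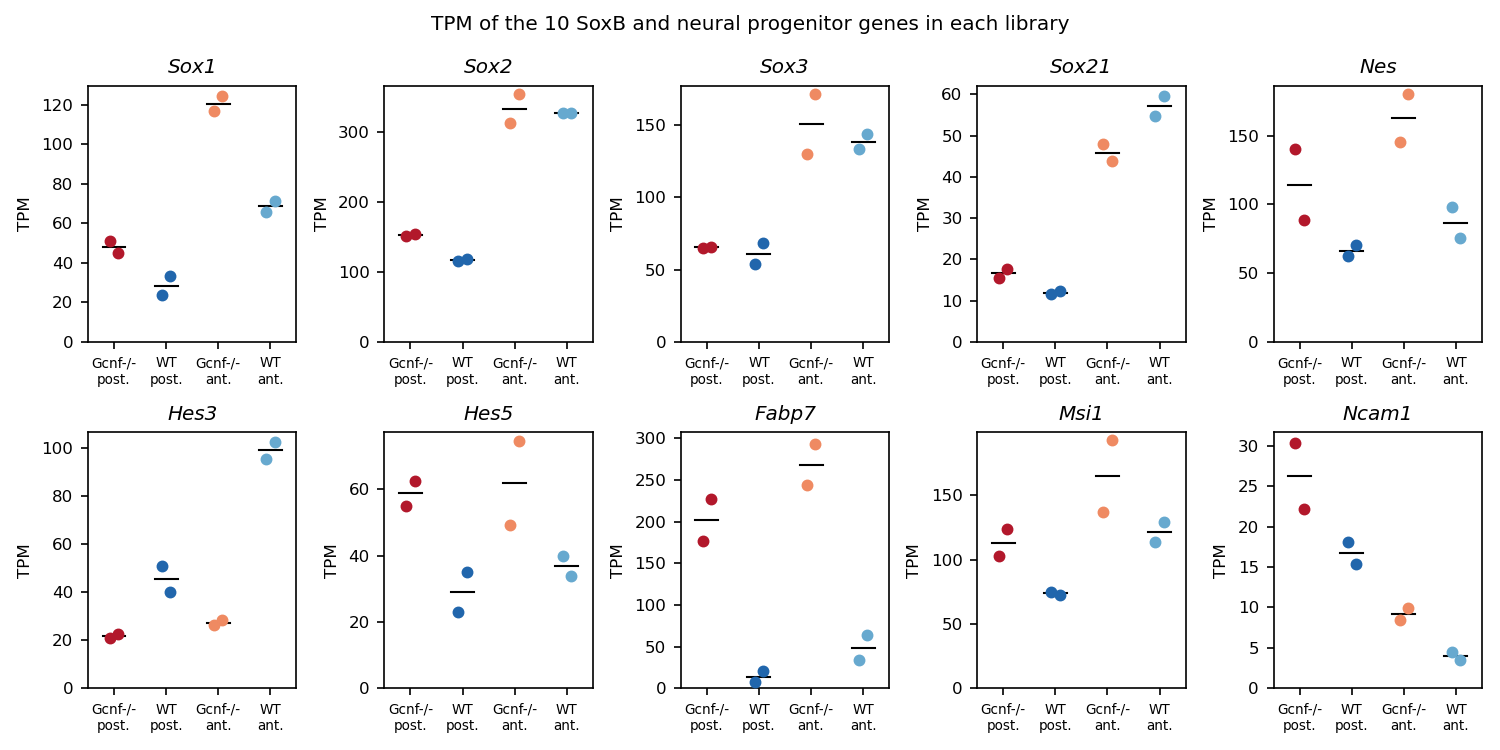
TPM of each of the 10 genes in all 8 libraries, by group, with posterior Gcnf-/-, posterior WT, anterior Gcnf-/- and anterior WT along the x axis of each panel and TPM on the y axis; points are libraries and lines are group means. Fabp7 stands at 177 to 293 TPM in the Gcnf-/- libraries and at 7.42 to 63.9 TPM in the WT libraries, and Hes3 is the gene with all Gcnf-/- values below all WT values.

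Sox1, on chromosome 8 from 12395295 to 12400126 (mm10), was the SoxB1 gene that rose in Gcnf-/- embryos in both regions. It stood at 51.0 and 44.9 TPM in posterior Gcnf-/- libraries 159 and 163, against 23.7 and 33.2 TPM in posterior WT libraries 153 and 156. In anterior pieces it stood at 117 and 124 TPM in Gcnf-/- libraries, against 65.7 and 71.3 TPM in WT libraries. The 4 groups did not overlap and ran in the order anterior Gcnf-/-, anterior WT, posterior Gcnf-/-, posterior WT. Gcnf-/- means were 1.68-fold those of WT in the posterior and 1.76-fold in the anterior pieces, log2 differences of 0.75 ± 0.15 (SE, adjusted p = 0.0171) and 0.81 ± 0.15 (adjusted p = 0.0065). The posterior call was lost without Gcnf-/- posterior library 159 (adjusted p = 0.0544) or WT posterior library 153 (adjusted p = 0.0908), and the anterior call was kept without any 1 library.

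Sox2, on chromosome 3 from 34650405 to 34652461, was the most abundant SoxB gene per length in every library. In posterior pieces it stood at 151 and 154 TPM in Gcnf-/- libraries, against 115 and 118 TPM in WT libraries. That is 1.31-fold, a log2 difference of 0.38 ± 0.091 (adjusted p = 0.0306), small beside the other calls, with the groups apart. The call was lost without Gcnf-/- posterior library 159 (adjusted p = 0.0577) or 163 (0.0793), WT posterior library 153 (0.142) or 156 (0.0941), and WT anterior library 153 (0.0700) or 156 (0.0704). In anterior pieces it stood at 314 and 354 TPM in Gcnf-/- libraries, against 327 and 328 TPM in WT libraries. These overlapped, and the log2 difference of 0.026 had a 95% interval of -0.18 to 0.23 (adjusted p = 0.87). Sox2 lies inside the long noncoding gene Sox2ot, with which it shares no exon base. Sox2ot was at 1.96 and 1.97 TPM in posterior Gcnf-/- libraries, against 1.21 and 1.19 TPM in WT libraries. Anteriorly, where Sox2 did not pass, Sox2ot was at 3.58 and 3.41 TPM in Gcnf-/- libraries, against 1.38 and 1.21 TPM in WT libraries.

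Sox3, the third SoxB1 gene, on chromosome X from 60891366 to 60893430, did not pass the test between genotypes in either region. It stood at 65.2 and 65.6 TPM in posterior Gcnf-/- libraries, against 54.2 and 68.0 TPM in posterior WT libraries. Anterior values were 130.2 and 171 TPM in Gcnf-/- libraries, against 133 and 144 TPM in WT libraries. The groups overlapped in both regions, with log2 differences of 0.11 in each (95% intervals -0.23 to 0.44 and -0.23 to 0.45, adjusted p = 0.691 posterior and 0.644 anterior).

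Sox21, the SoxB2 member, on chromosome 14 from 118233232 to 118237030, differed in sign between the regions. Posterior values were 15.5 and 17.7 TPM in Gcnf-/- libraries, against 11.6 and 12.2 TPM in WT libraries, so the mutant libraries were the higher ones. Anterior values were 47.9 and 43.7 TPM in Gcnf-/- libraries, against 54.7 and 59.6 TPM in WT libraries, so there the mutant libraries were the lower ones. The posterior difference was 0.44 ± 0.11 (adjusted p = 0.0361) and the anterior one -0.31 ± 0.11, which did not pass (adjusted p = 0.0725). The posterior call was lost without Gcnf-/- posterior library 163 (adjusted p = 0.129), WT posterior library 153 (0.166) or 156 (0.0971), and WT anterior library 153 (0.0668) or 156 (0.0673), and under median-of-ratios scaling (0.0663) or quantile normalization (0.0844). Of the exon bases of Sox21, 713 (18.8%) are shared with Gm4675 on the opposite strand, which was at 0.88 to 4.62 TPM, and the library kit did not mark strand.

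Hes3, on chromosome 4 from 152285972 to 152291662, fell in Gcnf-/- pieces of both regions and was the only one of the 10 genes to pass as lower between genotypes. It stood at 20.8 and 22.5 TPM in posterior Gcnf-/- libraries, against 50.9 and 39.9 TPM in posterior WT libraries. Anterior values were 26.2 and 28.3 TPM in Gcnf-/- libraries, against 95.5 and 102 TPM in WT libraries. WT means were 2.09-fold those of Gcnf-/- in the posterior and 3.63-fold in the anterior pieces, log2 differences of -1.02 ± 0.13 (adjusted p = 0.00203) and -1.82 ± 0.13 (adjusted p = 9.58e-05). No group overlapped another, in the order anterior WT, posterior WT, anterior Gcnf-/-, posterior Gcnf-/-. Neither call was lost without any 1 library.

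Hes5, on the same chromosome from 154960923 to 154962371, went the other way. Posterior values were 55.0 and 62.6 TPM in Gcnf-/- libraries, against 23.0 and 35.1 TPM in WT libraries, a rise of 2.02-fold or 1.02 ± 0.23 on the log2 scale (adjusted p = 0.025). Anterior values were 49.2 and 74.6 TPM in Gcnf-/- libraries, against 39.9 and 34.0 TPM in WT libraries. The anterior groups did not overlap, but the difference of 0.70 ± 0.23 did not pass (adjusted p = 0.0553). The posterior call was lost without Gcnf-/- posterior library 163 (adjusted p = 0.0766) or WT posterior library 153 (0.174), and the anterior difference passed without Gcnf-/- anterior library 159 (adjusted p = 0.0278) or without any 1 of the 4 posterior libraries (0.0470 to 0.0476). Of its exon bases 433 (31.8%) are shared with Gm20421 on the opposite strand, which was at 0 to 0.4 TPM.

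Fabp7, on chromosome 10 from 57784881 to 57788450, had the largest difference of the 10 genes in both regions, and in the posterior pieces the fourth largest of all 16699 genes by size. Posterior values were 177 and 227 TPM in Gcnf-/- libraries, against 7.42 and 20.5 TPM in WT libraries, means of 202 ± 35.1 and 14.0 ± 9.24 TPM (SD, n = 2 each). Anterior values were 243 and 293 TPM in Gcnf-/- libraries, against 33.4 and 63.9 TPM in WT libraries, means of 268 ± 34.8 and 48.6 ± 21.5 TPM (SD, n = 2 each). Even the lowest Gcnf-/- library, a posterior one, was above the highest WT library, an anterior one. The rise was 14.5-fold posteriorly, 3.90 ± 0.41 on the log2 scale (adjusted p = 0.0011), and 5.51-fold anteriorly, 2.50 ± 0.41 (adjusted p = 0.00391). The posterior fold rests on unequal WT libraries, at 27.2-fold without WT posterior library 156 and 9.86-fold without WT posterior library 153 (4.58 and 3.23 on the log2 scale). Both calls were kept without any 1 library and under each of the 19 alternatives.

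Nes, on chromosome 3 from 87971078 to 87980451, stood at 140.3 and 88.3 TPM in posterior Gcnf-/- libraries 159 and 163, against 62.4 and 70.5 TPM in posterior WT libraries. Anterior values were 145 and 180.3 TPM in Gcnf-/- libraries, against 97.8 and 75.4 TPM in WT libraries. Mutant libraries were above WT libraries in both regions, and the posterior mutant pair was the most unequal. The anterior rise was 1.88-fold, 0.91 ± 0.22 on the log2 scale (adjusted p = 0.0179), and was no longer called without Gcnf-/- anterior library 163 (0.109) or WT anterior library 156 (0.104). The posterior difference of 0.74 ± 0.22 did not pass (adjusted p = 0.0618), but passed without Gcnf-/- posterior library 163 (0.00963).

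Msi1, on chromosome 5 from 115429599 to 115455698, had 103 and 124 TPM in posterior Gcnf-/- libraries, against 74.8 and 73.0 TPM in posterior WT libraries. Anterior values were 137 and 193 TPM in Gcnf-/- libraries, against 114 and 129 TPM in WT libraries. The mutant libraries were the higher ones in both regions, by 1.53-fold posteriorly (0.60 ± 0.16, adjusted p = 0.0467) and 1.36-fold anteriorly, which did not pass (0.42 ± 0.16, adjusted p = 0.0950). The posterior call lay close to the threshold. It was lost without Gcnf-/- posterior library 163 (0.156), WT posterior library 153 (0.192) or 156 (0.169), and WT anterior library 153 (0.0591) or 156 (0.0593), and it was kept in 7 of 19 alternatives in all. The anterior difference passed without Gcnf-/- anterior library 159 (0.0225).

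Ncam1, on chromosome 9 from 49502136 to 49798925, was the least abundant of the 10 genes in every anterior library. Posterior values were 30.3 and 22.2 TPM in Gcnf-/- libraries, against 18.1 and 15.4 TPM in WT libraries. Anterior values were 8.51 and 9.88 TPM in Gcnf-/- libraries, against 4.47 and 3.51 TPM in WT libraries. The 4 groups were apart, in the order posterior Gcnf-/-, posterior WT, anterior Gcnf-/-, anterior WT. The anterior rise of 2.31-fold was called with and without each library (1.04 ± 0.18, adjusted p = 0.00443). The posterior difference of 0.61 ± 0.18 did not pass (adjusted p = 0.0603), but passed without Gcnf-/- posterior library 163 (0.0305).

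**Figure D2:**
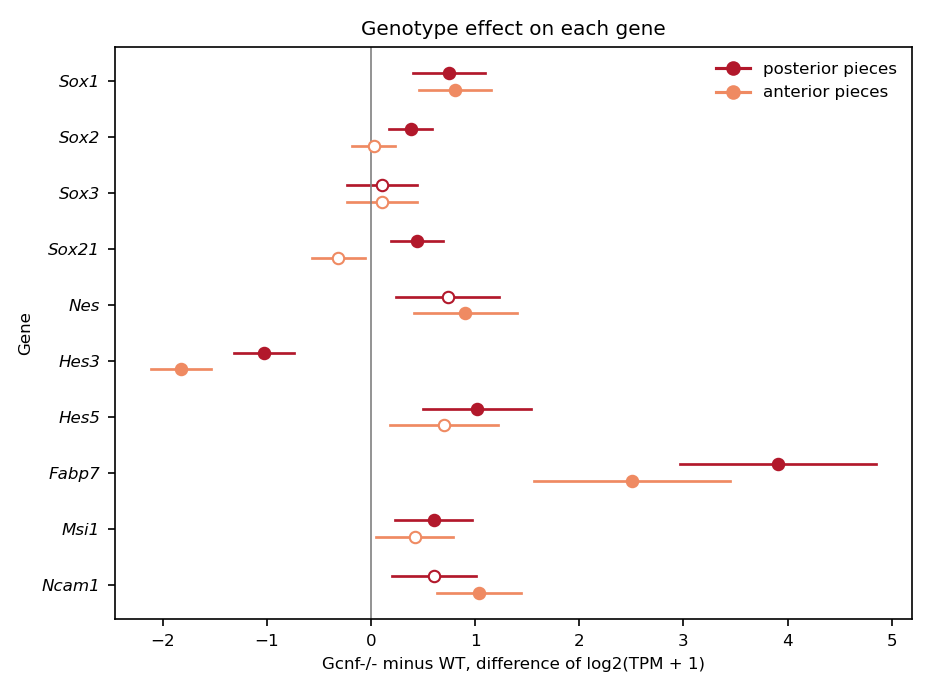
Gcnf-/- minus WT difference of log2(TPM + 1) (x axis) for each of the 10 genes (y axis) in posterior and anterior pieces; bars are 95% intervals and filled points passed limma's test at an adjusted p under 0.05. Hes3 lies to the left of 0 in both regions, Fabp7 furthest to the right, and Sox21 lies on opposite sides of 0 in the 2 regions.

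Between regions, 5 of the 10 genes passed in Gcnf-/- embryos, 1 higher and 4 lower in the posterior piece, where 16.1% of all genes passed, 8.01% higher and 8.1% lower. In WT embryos 8 passed, 1 higher and 7 lower, against 14.5% of all genes, 7.86% higher and 6.65% lower. Sox1, Sox2, Sox3 and Sox21 were lower posteriorly in both genotypes and Ncam1 was higher posteriorly in both, while Hes3, Fabp7 and Msi1 were called lower in WT but not in Gcnf-/- embryos; that they differ between genotypes is not shown by this. Both posterior libraries lay below both anterior ones for 8 genes in each genotype, and Hes5 overlapped in each. The share of all genes apart in this way was not counted here either.

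Sox21 had the steepest fall, at -1.42 ± 0.11 in Gcnf-/- embryos (adjusted p = 5.35e-05) and -2.17 ± 0.11 in WT embryos (adjusted p = 3.87e-06), so that anterior means were 2.77-fold and 4.81-fold the posterior ones. Sox2 differed by -1.12 ± 0.091 in Gcnf-/- embryos (adjusted p = 6.51e-05) and by -1.48 ± 0.091 in WT embryos (adjusted p = 1.25e-05). Sox1 differed by -1.32 ± 0.15 in Gcnf-/- embryos (adjusted p = 0.000503) and by -1.26 ± 0.15 in WT embryos (adjusted p = 0.000747). Sox3 differed by -1.18 ± 0.15 in each (adjusted p = 0.00087 in Gcnf-/- and 0.00099 in WT embryos). These SoxB falls, together with the rise of Ncam1, were called without any 1 library. Ncam1 rose by 1.41 ± 0.18 in Gcnf-/- embryos (adjusted p = 0.000847) and by 1.84 ± 0.18 in WT embryos (adjusted p = 0.000211), 2.86-fold and 4.21-fold.

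Fabp7 was at 202 TPM posteriorly and 268 TPM anteriorly in Gcnf-/- means, a difference of -0.41 ± 0.41 that did not pass (adjusted p = 0.585). In WT embryos the means were 14.0 TPM posteriorly and 48.6 TPM anteriorly, and the fall of -1.81 ± 0.41 passed (adjusted p = 0.0195), though not without WT anterior library 156 (0.109) or WT posterior library 153 (0.104). The anterior WT mean was 3.49-fold the posterior one, and 6.56-fold without WT posterior library 156. Hes3 differed by -0.32 ± 0.13 in Gcnf-/- embryos (adjusted p = 0.144) and fell by 1.11 ± 0.13 in WT embryos (adjusted p = 0.000548), a call kept without any 1 library. Msi1 differed by -0.53 ± 0.16 in Gcnf-/- embryos (adjusted p = 0.0613) and fell by 0.71 ± 0.16 in WT embryos (adjusted p = 0.0197). The WT call of Msi1 was lost without WT anterior library 156 (0.129), WT posterior library 153 (0.0966) or WT posterior library 156 (0.128), and the Gcnf-/- difference passed without Gcnf-/- anterior library 159 (0.0146) and with a filter at 5 TPM (0.0419). Nes did not pass in Gcnf-/- embryos (-0.53, adjusted p = 0.147) or WT embryos (-0.37, adjusted p = 0.296), and passed in Gcnf-/- embryos without posterior library 159 (0.0123). Hes5 did not pass either, at -0.046 in Gcnf-/- embryos (adjusted p = 0.930) and -0.36 in WT embryos (adjusted p = 0.327).

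**Figure D3:**
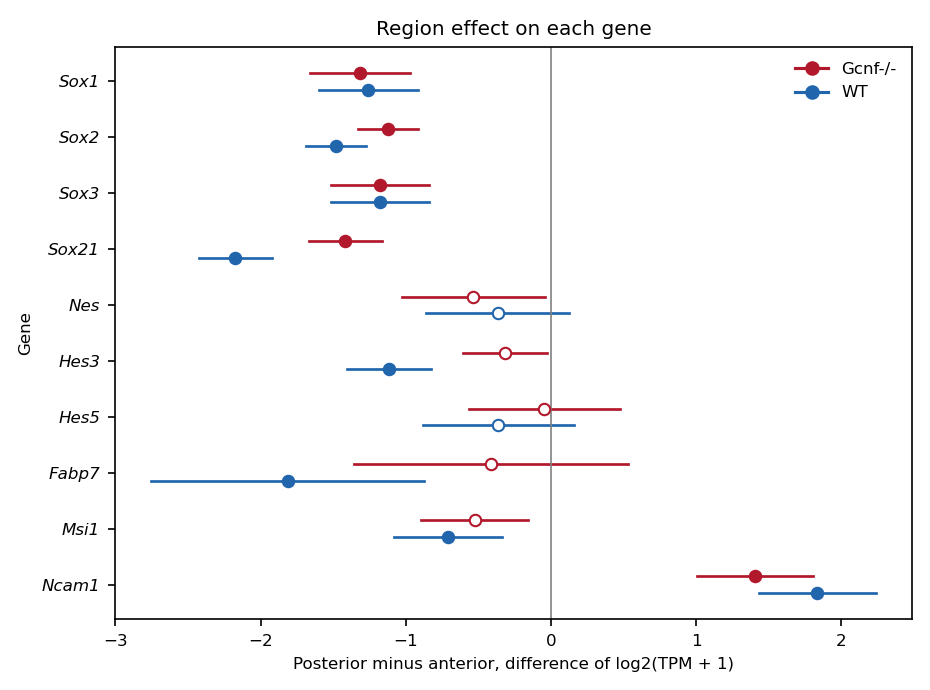
Posterior minus anterior difference of log2(TPM + 1) (x axis) for each of the 10 genes (y axis) in Gcnf-/- and WT embryos; bars are 95% intervals and filled points passed limma's test at an adjusted p under 0.05. The 4 SoxB genes lie between -2.17 and -1.12 in both genotypes, Ncam1 lies to the right of 0, and Fabp7 is nearer 0 in Gcnf-/- than in WT embryos.

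The difference between regions in the genotype effect, anterior minus posterior, was tested directly. None of the 10 genes passed, against 1.01% of all genes. An unadjusted p under 0.05 in limma's test was reached by 2109 of all 16699 genes and by 4 of the 10. The 4 were Sox21 (-0.76 ± 0.16, adjusted p = 0.0724), Hes3 (-0.80 ± 0.18, 0.0909), Sox2 (-0.36, 0.284) and Fabp7 (-1.40 ± 0.59, 0.371). For Fabp7 the 95% interval was -2.73 to -0.070, and for Hes3 it was -1.21 to -0.39.

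Ratios within a library do not depend on its scaling. Sox1 made up 19.1% and 16.9% of the summed SoxB1 TPM in posterior Gcnf-/- libraries, against 12.3% and 15.1% in posterior WT libraries. In anterior pieces it made up 20.8% and 19.1% in Gcnf-/- libraries, against 12.5% and 13.1% in WT libraries. All 4 Gcnf-/- shares were above all 4 WT shares. The Hes5 to Hes3 ratio was 2.64 and 2.78 in posterior Gcnf-/- libraries, against 0.452 and 0.880 in posterior WT libraries. In anterior pieces it was 1.88 and 2.63 in Gcnf-/- libraries, against 0.418 and 0.333 in WT libraries. Hes5 thus exceeded Hes3 per length in every Gcnf-/- library and in no WT library. Fabp7 per Sox2 was 1.17 and 1.47 in posterior Gcnf-/- libraries against 0.0643 and 0.173 in WT libraries, and 0.776 and 0.826 in anterior Gcnf-/- libraries against 0.102 and 0.195 in WT libraries. Sox21 per Sox2 was 0.103 and 0.114 in posterior Gcnf-/- libraries against 0.1002 and 0.103 in WT libraries, and 0.153 and 0.123 in anterior Gcnf-/- libraries against 0.167 and 0.182 in WT libraries.

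**Figure D4:**
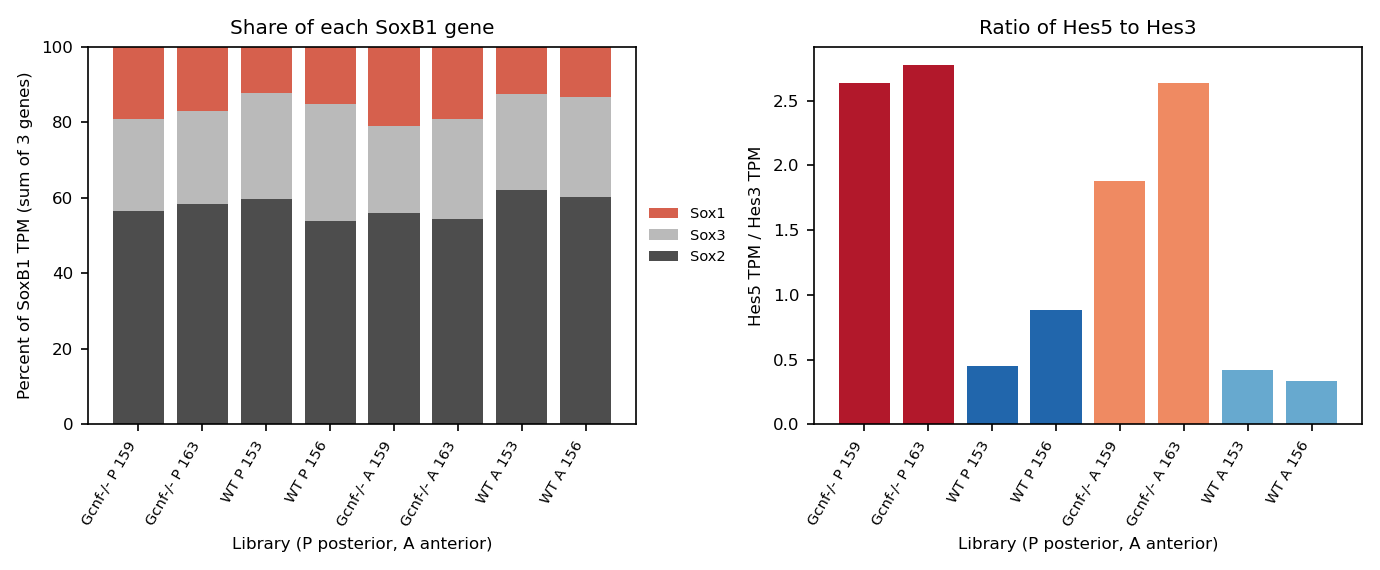
Left, percent of summed SoxB1 TPM from Sox1, Sox3 and Sox2 in each library (stacked bars); right, ratio of Hes5 TPM to Hes3 TPM in each library. The Sox1 share is 16.9% to 20.8% in Gcnf-/- libraries and 12.3% to 15.1% in WT libraries, and the Hes5 to Hes3 ratio is above 1 in the Gcnf-/- libraries alone.

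Other genes of the Notch pathway, which acts on Hes5, were taken from a list of 28 ligands, receptors, modifiers and targets. In posterior pieces 2 were higher and 0 lower in Gcnf-/- libraries, or 7.14% of the list against 11.5% of all genes. In anterior pieces 11 were higher and 2 lower, or 46.4% against 23.6%. The anterior count of 13 became 6 without Gcnf-/- anterior library 163, 5 without WT anterior library 153 and 7 without WT anterior library 156. The posterior count of 2 (Hes6 and Mfng) became 1 without Gcnf-/- posterior library 163 and 0 without WT posterior library 153 or 156. The list's median difference was 0.20 posteriorly and 0.32 anteriorly, beside 0.048 and 0.020 for all genes.

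Dll3, a ligand that acts mainly inside the cell as an inhibitor, was at 32.5 and 26.6 TPM in posterior Gcnf-/- libraries, against 35.3 and 33.2 TPM in WT libraries. In anterior pieces it was at 10.6 and 16.4 TPM in Gcnf-/- libraries, against 2.73 and 3.44 TPM in WT libraries, a rise of 1.81 ± 0.20 (adjusted p = 0.000561). Its genotype effect differed between regions, anterior minus posterior, by 2.02 ± 0.28 (adjusted p = 0.0177), a call lost without WT posterior library 153 or 156 (highest adjusted p = 0.125). The ligand gene Dll4, with 15.04 and 17.4 TPM in anterior Gcnf-/- libraries against 5.29 and 5.66 TPM in WT libraries, rose by 1.41 ± 0.17 (adjusted p = 0.000809). The receptor gene Notch1, with 28.3 and 32.8 TPM in anterior Gcnf-/- libraries against 14.5 and 12.3 TPM in WT libraries, rose by 1.13 ± 0.18 (adjusted p = 0.00296). Lfng, a glycosyltransferase that modifies Notch receptors, fell to 44.8 and 57.9 TPM in anterior Gcnf-/- libraries, against 97.8 and 89.7 TPM in WT libraries (-0.86 ± 0.14, adjusted p = 0.00395). The anterior calls of Dll3, Dll4, Notch1 and Lfng were kept without any 1 library.

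**Figure D5:**
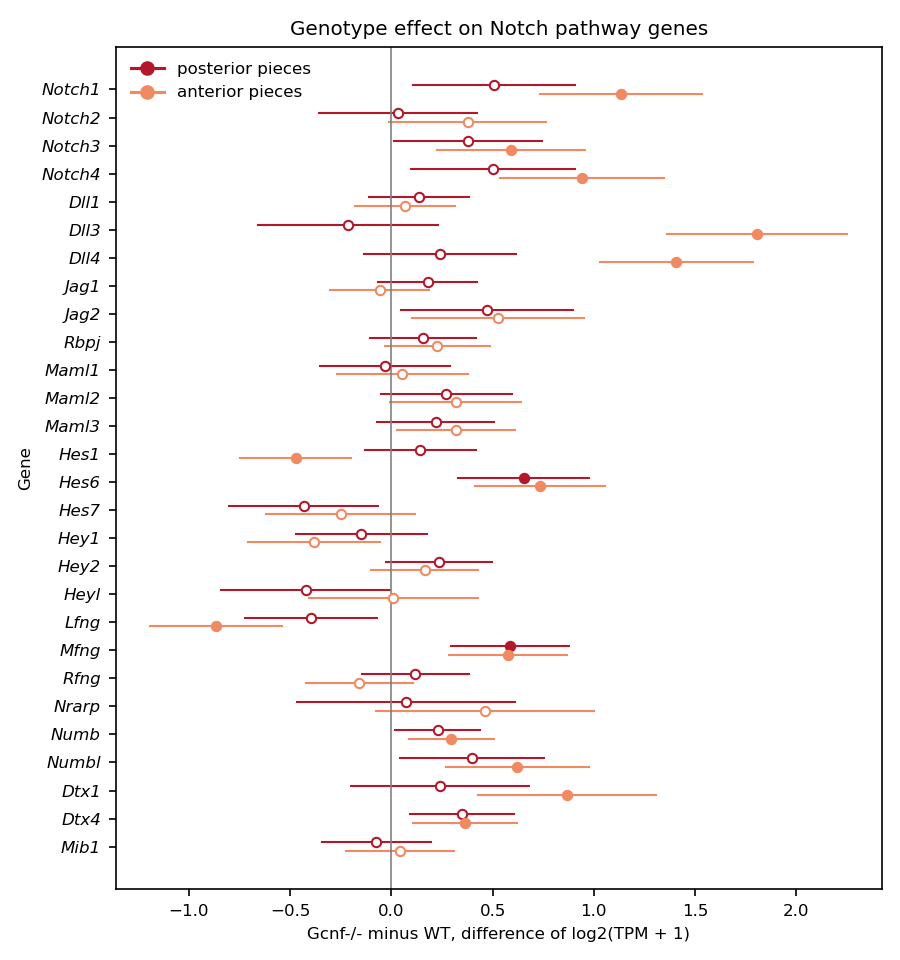
Gcnf-/- minus WT difference of log2(TPM + 1) (x axis) for 28 Notch pathway genes (y axis) in posterior and anterior pieces; bars are 95% intervals and filled points passed limma's test at an adjusted p under 0.05. Dll3 lies at 1.81 in the anterior and -0.22 in the posterior pieces, and 13 anterior and 2 posterior points are filled.

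Among 31 further progenitor and radial glia genes, 9 were higher and 2 lower in posterior Gcnf-/- libraries, and 10 were higher and 1 lower in anterior ones. That is 35.5% of the list in each region, against 11.5% of all genes posteriorly and 23.6% anteriorly. The posterior count of 11 became 4 without WT posterior library 153 and 7 without WT posterior library 156, and the anterior count of 11 became 7 without WT anterior library 156. Slc1a3, the glial glutamate transporter of radial glia, was at 20.7 and 24.0 TPM in posterior Gcnf-/- libraries, against 7.35 and 8.24 TPM in WT libraries, and at 22.5 and 18.9 TPM in anterior Gcnf-/- libraries, against 6.73 and 8.56 TPM in WT libraries. It rose by 1.41 ± 0.15 posteriorly (adjusted p = 0.00118) and 1.33 ± 0.15 anteriorly (adjusted p = 0.00068). Vim, the intermediate filament vimentin of radial glia and mesenchyme, rose by 1.14 ± 0.14 posteriorly (adjusted p = 0.00193) and 1.56 ± 0.14 anteriorly (adjusted p = 0.000271). Each of these 4 calls was kept without any 1 library.

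Pou3f3, a POU factor of neural progenitors, rose in posterior pieces, with 11.0 and 12.8 TPM in Gcnf-/- libraries against 2.70 and 3.02 TPM in WT libraries (1.74 ± 0.19, adjusted p = 0.00116), a call kept without any 1 library. Its anterior values were 8.74 and 12.6 TPM in Gcnf-/- libraries, against 8.52 and 10.7 TPM in WT libraries, and these overlapped. Ccnd1, the cyclin of G1 phase, fell in anterior pieces to 132 and 127 TPM in Gcnf-/- libraries, against 256 and 268 TPM in WT libraries (-1.01 ± 0.093, adjusted p = 0.000293, kept without any 1 library). Between regions, 17 of the 31 were lower and 3 higher in the posterior piece of Gcnf-/- embryos, and 17 were lower and 2 higher in that of WT embryos, 64.5% and 61.3% of the list against 16.1% and 14.5% of all genes. The WT count of 19 became 12 without WT anterior library 156, WT posterior library 153 or WT posterior library 156.

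Among 15 other Sox genes, of which 13 passed the filter, 1 was higher and 1 lower in posterior Gcnf-/- libraries, and 1 was higher and 2 lower in anterior ones. These are 15.4% of the tested list posteriorly and 23.1% anteriorly, near the 11.5% and 23.6% of all genes. The posterior count of 2 (Sox10 lower, Sox17 higher) became 1 without Gcnf-/- posterior library 163 or WT posterior library 153, and the anterior count of 3 became 5 without Gcnf-/- anterior library 159. The gene that rose in anterior pieces was Sox14, the other SoxB2 gene, with 10.6 and 10.3 TPM in Gcnf-/- libraries against 0.929 and 2.02 TPM in WT libraries (2.24 ± 0.23, adjusted p = 0.000433). It reached 1 TPM in those libraries and WT anterior library 156 alone, so it passed the filter through the group where it is high. Its posterior values stayed under 1 TPM, at 0.612 and 0.554 in Gcnf-/- libraries and 0.195 and 0.0689 in WT libraries. The neural crest genes Sox10 and Sox8 fell in anterior pieces by 1.25 and 1.61 on the log2 scale (adjusted p = 0.000422 and 0.000522), and Sox10 fell posteriorly by 2.75 (adjusted p = 1.94e-05). The anterior calls of Sox14, Sox10 and Sox8 and the posterior call of Sox10 were kept without any 1 library.

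Ncam1 carries polysialic acid, and 10 genes of polysialylation and neural adhesion were examined beside it, of which 8 passed the filter. None passed in posterior pieces. There 3 of the 8 had an unadjusted p under 0.05 in limma's test, as had 4652 of all 16699 genes. In anterior Gcnf-/- libraries 3 were higher, 37.5% against 23.6% of all genes. Cntn2, the axonal adhesion protein TAG-1, was at 6.32 and 9.89 TPM in anterior Gcnf-/- libraries, against 0.928 and 0.751 TPM in WT libraries (2.28 ± 0.23, adjusted p = 0.000412). Alcam, another immunoglobulin-type adhesion gene, was at 12.2 and 17.4 TPM in anterior Gcnf-/- libraries, against 6.003 and 5.79 TPM in WT libraries (1.17 ± 0.18, adjusted p = 0.00268). Both were kept without any 1 library, whereas Cntn1 lost its call without WT anterior library 153 or 156 (highest adjusted p = 0.0838) and failed the filter, so could not be tested, without either Gcnf-/- anterior library. Cntn1 therefore passed the filter only through the group where it is high, and Cntn2 only through Gcnf-/- libraries. The polysialyltransferase genes St8sia2 and St8sia4, named after their values were seen, differed by 0.26 and -0.038 anteriorly (adjusted p = 0.397 and 0.917), and the paralogue Ncam2 was at 0.0184 to 0.0847 TPM in all 8 libraries.

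Markers of other cell types moved with genotype in the same pieces, to be read beside the 11.5% of all genes called posteriorly and 23.6% anteriorly. Of 13 early neuron markers, 10 were higher in posterior (76.9%) and 12 in anterior Gcnf-/- libraries (92.3%) and none lower, and the posterior count became 6 without WT posterior library 153 or 156. Their summed TPM was 169.6 to 169.9 in posterior Gcnf-/- libraries against 76.0 to 82.1 in WT libraries, and 506 to 699.6 in anterior Gcnf-/- libraries against 181 to 183 in WT libraries. Of these 13 markers, 4 were under 1 TPM in each anterior WT library and 4 to 5 in posterior WT libraries. In Gcnf-/- libraries 0 were so anteriorly and 1 to 2 posteriorly. Some may thus have passed the filter only through Gcnf-/- libraries, where they are high. Of 6 blood markers, 4 were higher posteriorly (66.7%) and 5 anteriorly (83.3%). The posterior count became 1 without Gcnf-/- posterior library 159, 0 without WT posterior library 153 and 1 without WT posterior library 156, and the anterior count became 2 without Gcnf-/- anterior library 159 or WT anterior library 153. Blood markers summed to 22047 to 43799 TPM in posterior Gcnf-/- libraries against 6308 to 7546 TPM in WT libraries, and to 25352 to 43628 TPM in anterior Gcnf-/- libraries against 4205 to 9849 TPM in WT libraries. Of 12 epiblast and germ cell markers, 10 passed the filter and 3 were higher in each region (30%, near the background anteriorly), among them Pou5f1 and Nanog. Under 1 TPM were 5 to 6 of the 12 in WT libraries and 3 to 4 in Gcnf-/- libraries, so the same limit holds for them. Of 10 neural crest markers, 5 were lower posteriorly (50%) and 6 anteriorly (60%), and the posterior count became 3 without WT posterior library 153 or 156. Neural crest markers summed to 1812 to 2084 TPM in posterior Gcnf-/- libraries, against 2806 to 2878 TPM in WT libraries. Their anterior sums overlapped, at 1491 to 2553 TPM in Gcnf-/- libraries against 1818 to 2373 TPM in WT libraries. Of 8 placode markers, 1 was higher and 5 lower posteriorly (75%) and 2 were higher and 2 lower anteriorly (50%). The posterior count of 6 became 3 without Gcnf-/- posterior library 163, 1 without WT posterior library 153 and 2 without WT posterior library 156, and the anterior count of 4 became 2 without Gcnf-/- anterior library 159 or WT anterior library 153. Placode markers summed to 71.3 to 73.7 TPM in posterior Gcnf-/- libraries against 87.9 to 100.6 TPM in WT libraries, and to 167 to 213 TPM in anterior Gcnf-/- libraries against 165 to 168 TPM in WT libraries. The 6 heart markers gave no call between genotypes in limma's test and none at an unadjusted p under 0.05. Heart markers summed to 3520 and 421 TPM in posterior Gcnf-/- libraries 159 and 163, against 500 and 1524 in WT libraries 153 and 156. Anterior sums were 424 and 133 TPM in Gcnf-/- libraries 159 and 163, against 158 and 41.0 in WT libraries 153 and 156. Libraries of a group were thus very unequal, and the lack of a call does not show equal heart content. The part of these cell types in the values of the 10 genes was not tested.

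Markers of axial progenitors and paraxial mesoderm moved with region, as Ncam1 did, and some with genotype. In the posterior piece of Gcnf-/- embryos, 9 of 10 axial progenitor markers were higher, and 7 paraxial mesoderm markers were higher and 1 lower. In WT embryos 8 of 10 were higher in each list. Of all genes, 16.1% passed in Gcnf-/- and 14.5% in WT embryos. Of 6 heart markers, 3 were higher posteriorly in WT embryos. None passed in Gcnf-/- embryos, where 4 had an unadjusted p under 0.05 in limma's test, as had 4649 of all 16699 genes. Of 10 axial progenitor markers, 1 was higher and 2 lower in posterior Gcnf-/- libraries (30%), and 2 were higher and 3 lower in anterior ones (50%). The posterior count of 3 became 1 without WT anterior library 153 or 156 or WT posterior library 156 and 0 without WT posterior library 153, and the anterior count of 5 became 3 without Gcnf-/- anterior library 163 or WT anterior library 156. Of 10 paraxial mesoderm markers, none passed between genotypes posteriorly (2 at an unadjusted p under 0.05 in limma's test), and 1 was higher and 1 lower anteriorly, a count of 2 that became 5 without Gcnf-/- anterior library 159, 4 without either Gcnf-/- posterior library and 1 without WT anterior library 153. Of all 16699 genes, 4652 had an unadjusted p under 0.05 between genotypes posteriorly in limma's test. The 10 axial progenitor markers summed to 819 to 959 TPM in posterior and 42.7 to 60.9 TPM in anterior Gcnf-/- libraries, and to 919 to 1114 TPM in posterior and 94.7 to 106 TPM in anterior WT libraries. The 10 paraxial mesoderm markers summed to 335 to 376 TPM in posterior and 75.4 to 102 TPM in anterior Gcnf-/- libraries, and to 373 to 458 TPM in posterior and 63.9 to 66.4 TPM in anterior WT libraries. The part of these cell types, heart included, in the posterior level of Ncam1 was not tested.

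For each of the 10 genes the pattern most like it over the 8 libraries was sought among 13380 other genes with a mean of at least 2 TPM, by Pearson's r of log2(TPM + 1), as a description. Sox2 and Sox21 were each closest to a LIM homeobox gene, Lhx2 (r = 0.996) and Lhx5 (r = 0.995). Lhx2 stood at 4.09 and 5.78 TPM in posterior Gcnf-/- libraries against 1.53 and 2.04 TPM in WT libraries, and at 66.0 and 69.0 TPM in anterior Gcnf-/- libraries against 62.7 and 78.2 TPM in WT libraries. Sox3 was closest to Nrsn1 (r = 0.999), Fabp7 to P4htm (r = 0.984), Nes to Bmpr1b (r = 0.989), Msi1 to Pcgf2 (r = 0.987), Ncam1 to Col5a2 (r = 0.992) and Hes5 to Hint2 (r = 0.980). Hes3 was closest to the ribosome assembly gene Noc4l (r = 0.997), which had 96.4 and 103 TPM in posterior Gcnf-/- libraries against 129.8 and 121 TPM in WT libraries, and 103 and 106 TPM in anterior Gcnf-/- libraries against 165 and 171 TPM in WT libraries. Sox1 was closest to Gm13668 (r = 0.991), followed by Cacng8 (r = 0.988). All values of a library share its depth and scaling, and the 8 libraries form 4 groups.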

How the data were processed

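RNA abundance was measured in 8 libraries, 2 in each of 4 groups given by the genotype and region labels. RNA was stored in RNAlater and sequenced from unstranded poly-A libraries, per the labels' protocols. The submitters' processing notes name CASAVA (version 1.8.2), STAR and the mm10 build; no annotation, counting tool or version of STAR is named there. The authors deposited TPM values for 55421 Ensembl identifiers, each library summing to 1000000, so a class of RNA that takes a larger share lowers all other values. Names, coordinates and exon lengths came from GENCODE M21 (55240 identifiers matched). Of the values above 0, 98.8% to 98.89% became whole reads (within 0.01 read) when multiplied by exon length and scaled, and the read totals rest on this.

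Genes at 1 TPM or more in at least 2 libraries (16699) were fitted as log2(TPM + 1) with limma 3.58.1 in R 4.3.3; on this scale changes of low genes come out too small. The fit had 4 group means, a trend of spread on mean, and 4 residual and 4.68 prior degrees of freedom. All tests were two-sided; p-values were adjusted over all genes tested by the Benjamini-Hochberg method, with a threshold of 0.05. Contrasts were Gcnf-/- minus WT in either region, the anterior effect minus the posterior one, and posterior minus anterior in either genotype. The fit was also run on simulated data with known changes and a spread set in advance. Simulated libraries were drawn independently, so that run does not show how the fit handles paired or unequal libraries. Alternatives changed the pseudocount, filter, scaling, spread estimate, replicate block and libraries used.

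The 10 genes and all gene lists were chosen with earlier results of these data known. Named were the 10 genes, genes overlapping 1 of them, the genes most like each, marker genes at or near 0, and up to 4 genes a list by smallest p of a genotype effect.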

Additional observations from a re-analysis of the deposited data

Results flagged for a closer look

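Sox21 stood out because both Gcnf-/- libraries lay on opposite sides of both WT libraries in the 2 regions, above them posteriorly (15.5 and 17.7 TPM, against 11.6 and 12.2 TPM in WT libraries) and below them anteriorly (47.9 and 43.7 TPM, against 54.7 and 59.6 TPM in WT libraries). The difference of the genotype effects, anterior minus posterior, was -0.76 ± 0.16 on the log2(TPM + 1) scale, with a 95% interval of -1.11 to -0.40. It had an unadjusted p of 0.001 and did not pass over all genes in limma's test (adjusted p = 0.0724). Of the alternatives, only the filter raised to 5 TPM called it (adjusted p = 0.0471). The difference ranged from -0.85 to -0.67 when 1 library was left out. Sox21 was flagged from these same values, so the p-values do not test the flag.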

How the results depend on the processing

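At least 69 reads lay behind each value of the 10 genes, and each group had 2 libraries. Over 970 combinations of a gene, a comparison and an alternative, 873 kept direction and side of the threshold, 58 lost a call, 22 gained one and 17 changed sign, none of these called; the causes were not tested. The 7 posterior genotype calls among the 10 genes became 2 without a filter on low values, 3 with only the 4 posterior libraries, 4 without a trend of the spread and 1 without both libraries numbered 153, a setting chosen after the data were seen. The difference of genotype effects, with no call among the 10, had 1 with a filter at 5 TPM (Sox21) and 1 with a replicate block (Fabp7, adjusted p = 0.0325). The block also called Msi1 lower posteriorly in Gcnf-/- embryos (adjusted p = 0.0183) and changed no other call among the 10. The block could not be fitted for genotype effects, since the genotypes share no number. Samples of one number correlated in their deviations from group means at r = 0.136 in Gcnf-/- and 0.022 in WT embryos, and the main fit did not pair them. In Gcnf-/- embryos, however, the anterior and posterior libraries of a number shared sex. All WT libraries held Ddx3y, so sex could not show this in WT embryos. Whether libraries of a number came from the same embryos is not stated for either genotype. The region tests in both genotypes, and the test of the difference of effects, may thus treat paired pieces as independent. Without both libraries numbered 153, calls over all genes were 180 for the posterior genotype effect, 652 for the anterior one, 0 for their difference (1031 at an unadjusted p under 0.05, limma), 1708 for region in Gcnf-/- and 573 for region in WT embryos. Without a filter they were 954 for the posterior effect and 55 for the difference, and with only the 4 libraries compared 934 for the posterior effect and 1593 for region in Gcnf-/- embryos. Leaving out 1 library at a time gave 2 to 7 posterior genotype calls and 4 to 7 anterior ones among the 10 genes, with 383 to 1832 and 1545 to 4563 over all genes; the ranges over all genes were 20 to 209 for the difference, 1732 to 2770 for region in Gcnf-/- and 1182 to 2880 for region in WT embryos. Signs that turned when 1 library was left out were those of Sox2 (-0.062 to 0.11) and Sox3 (-0.088 to 0.30) in the anterior genotype effect, Sox3 (-0.055 to 0.27) in the posterior one, and Hes5 (-0.34 to 0.25) for region in Gcnf-/- embryos. In the difference of effects they were those of Sox1 (-0.18 to 0.29), Sox3 (-0.19 to 0.20), Nes (-0.16 to 0.50) and Msi1 (-0.43 to 0.062). Without both libraries numbered 153, Sox3 was at -0.055 in the posterior genotype effect, and Hes5 at 0.092 in the difference and 0.046 for region in WT embryos. That setting also ended the calls of Hes3 in the posterior genotype effect (adjusted p = 0.0619) and Sox3 for region in WT embryos (0.0592).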
